A study of Homo sapiens with 9 samples.

Results

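The baseline DNA:RNA hybrid landscape of SH-SY5Y cells carrying a control hairpin was described from 3 libraries, the untreated shNC replicates 1 to 3, out of 9 samples in the series. They were chosen by their labels alone: control hairpin, S9.6 antibody, no RNase H. SH-SY5Y is an established human neuroblastoma line with sympathetic neuron features. The shNC hairpin was delivered by lentivirus from a U6 vector, with puromycin selection for 2 weeks at 2 µg/mL and maintenance at 1 µg/mL. The wider study compares them with a TDP-43 knockdown, which was not analysed here. Purified nucleic acid was cut with 5 restriction enzymes (BsrGI, EcoRI, HindIII, SspI and XbaI), and 6 µg was precipitated with S9.6. A further shNC library, digested with RNase H for 6 h before precipitation, served as the assay's negative control and is given beside the results. Nothing in the labels ties the replicates to separate cultures, so their spread may be technical.

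An R-loop forms when nascent RNA anneals back to its DNA template and displaces the other DNA strand. Such hybrids are known to gather at CpG-rich promoters, at the 3′ ends of genes and over some highly transcribed gene bodies, and they are removed by RNase H enzymes and by certain helicases. DRIP-seq recovers them with S9.6, an antibody against DNA:RNA hybrids. Because whole restriction fragments are precipitated, a peak can extend beyond the hybrid itself.

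The 3 libraries held 73353, 69453 and 70819 peaks on chromosomes 1 to 22 and X. Those peaks covered 142 Mb in replicate 1, 130 Mb in replicate 2 and 125 Mb in replicate 3 (132 ± 8.55 Mb, SD, n = 3), or 4.47% ± 0.289 of the annotated extent of these chromosomes. The lowest background pileup, read back from the peak values as a relative depth, was 2.01, 1.93 and 1.62. Thus replicate 1 was the deepest and covered most. The RNase H library was shallower, at 0.936, and its 15504 peaks covered 10.5 Mb. In comparisons with it, depth and the effect of RNase H cannot be told apart.

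Most peaks were narrow, and a small number of wide peaks held much of the covered length. The median width was 756, 749 and 694 bp (733 ± 33.96 bp). Peaks under 500 bp made up 37.0% ± 1.15 of all peaks and 7.48% ± 0.539 of the covered length. Peaks over 10 kb made up only 2.81% ± 0.210 of peaks yet 25.9% ± 1.29 of the length. Joining peaks within 1 kb of each other raised the mean of the 3 median widths to 1464 bp.

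The fold of a peak over background, a value from the authors' peak caller, had a median of 4.33, 4.44 and 4.35. It rose with width within a library: the median fold was 3.58 ± 0.0845 for peaks under 500 bp and 26.0 ± 1.30 for those over 10 kb. Across the peaks of a library, the Spearman correlation of width and fold was 0.698 on average. Both quantities grow with the signal, so this correlation only describes the lists. Across libraries the median fold did not rise with depth: replicate 1, the deepest, had the lowest. In the shallower RNase H library the median width was 458 bp and the median fold 5.17. The part of depth in these values was not tested.

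Merging the 3 lists gave 89276 regions, of which 34519 (38.7%) were present in all 3 libraries. A library counted as present when 1 bp of a peak fell in the region. These shared regions held 137 Mb, or 81.9% of the merged length, with a median width of 2437 bp. Another 16564 regions were present in 2 libraries (median width 691 bp) and 38193 in 1 (384 bp). The median fold was 5.99 in regions shared by all 3 and 3.40 in regions of 1 library. The count of shared regions was 22341 with peaks of −log10 q of at least 5 and 13480 with at least 10.

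Strong peaks recurred and weak peaks mostly did not. Of the decile of peaks with the highest −log10 q, between 99.94% and 99.97% overlapped a peak in both other libraries. In the weakest decile this share was 13.6% in replicate 1, 22.97% in replicate 2 and 27.9% in replicate 3. Replicate 1 had the most regions of its own, 16266 against 11326 and 10601. Base by base, 100 Mb lay under peaks in all 3 libraries, 59.9% of the 168 Mb covered in any. The Jaccard index of covered bases was 0.720 between replicates 1 and 2, 0.705 between 1 and 3 and 0.704 between 2 and 3, so no library was a copy of another.

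**Figure D1:**
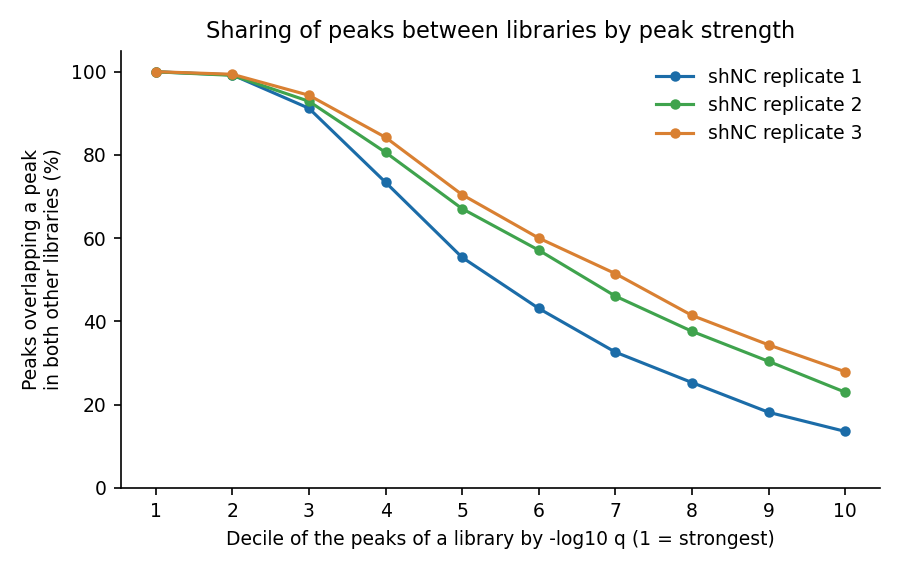
Percent of peaks that overlap a peak in both other libraries (vertical axis), for each decile of a library's peaks ordered by −log10 q (horizontal axis, 1 is the strongest); each line is 1 shNC library. All 3 lines start above 99% and fall to between 13.6% and 27.9% in the weakest decile.

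Shared regions also met the negative control more often. A peak of the RNase H library overlapped 10.1% of regions present in all 3 libraries, 4.11% of those in 2 and 3.36% of those in 1. Shared regions are wider, which by itself gives more room for overlap, and the part of width was not tested.

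The longest shared region lay over ZMIZ1, which encodes a PIAS-like transcriptional coactivator, on chromosome 10 from 79060693 to 79236251 (176 kb). It was 98.7%, 97.9% and 97.3% covered in replicates 1 to 3. A second shared region over the same gene (chromosome 10, 79236597 to 79320347, 83.8 kb) began just beyond it. Next in length came a 94.2 kb region on chromosome 16 (641762 to 735999) across 13 coding genes, among them STUB1, an E3 ubiquitin ligase, and the neurotrophic factor gene METRN. A 74.3 kb region on chromosome 17 (17776966 to 17851234) reached over RAI1, SREBF1 and TOM1L2. The fifth, of 73.7 kb, lay on chromosome 11 (63947054 to 64020720) over NAA40, COX8A, OTUB1 and MACROD1.

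The shared regions with the highest fold in their lowest library lay at EIF3G, PHOX2A, FOS, CFL1 and C11orf96. The region over EIF3G, a translation initiation subunit, and the ribosome biogenesis gene PPAN on chromosome 19 (10104609 to 10121561) had a highest fold of 156, 190 and 167 in replicates 1 to 3. The PHOX2A region (chromosome 11, 72220944 to 72245777), at a homeobox gene of noradrenergic neurons, had 168, 161 and 153. FOS, an immediate early gene (chromosome 14, 75275244 to 75285530), had 154, 197 and 149. The region over CFL1, encoding the actin-severing cofilin (chromosome 11, 65844113 to 65874599), had 158, 164 and 145, and that over C11orf96 (chromosome 11, 43931015 to 43951296) had 150, 167 and 136. In the untreated libraries the highest folds at the gene itself were those of its region. After RNase H the highest fold at the gene itself was 10.8 at EIF3G, 15.0 at PHOX2A and 9.88 at FOS. It was 7.75 at CFL1 and 9.81 at C11orf96. Peaks of the RNase H library still covered 62.5% of the EIF3G region, 68.4% of the PHOX2A region and 40.2% of the FOS region. They covered 28.6% of the CFL1 region and 24.3% of the C11orf96 region.

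EEF1A1, the translation elongation factor gene on chromosome 6, departed from that pattern and was singled out after its values were seen. Its peak had a fold of 489 in replicate 1, 91.9 in replicate 2 and 102 in replicate 3. In the RNase H library it had 118, inside the range of the untreated libraries. EEF1A1 has many near-identical processed pseudogenes, so read placement there is uncertain.

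Covered length lay mainly inside protein-coding genes. Windows within 1 kb of either end of a coding gene held 17.4% ± 0.550 of the covered length but make up 2.43% of the annotated extent. Gene bodies beyond those windows held 69.1% ± 0.720 (41.2% of the extent), and the rest, outside coding genes, held 13.5% ± 0.419 (56.4% of the extent). Put as the percent of each compartment under peaks, gene ends reached 32.0% ± 1.27, bodies 7.51% ± 0.525 and the space outside coding genes 1.07% ± 0.0877. The RNase H library placed 36.8% of its covered length outside coding genes.

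Peaks were sharply placed at gene starts. In 7181 coding genes of at least 30 kb with a known strand, the start site lay under a peak in 49.8%, 49.8% and 45.5% of genes in replicates 1 to 3. At 5 kb upstream this fell to 7.65%, 6.87% and 6.67%, and at 5 kb downstream it was 10.97%, 9.66% and 9.64%. Around gene ends the profile was low and broad: 20.7%, 19.3% and 19.2% at the end itself, and 22.9%, 20.9% and 20.5% at 2 kb beyond it. After RNase H the start site was covered in 0.836% of these genes.

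**Figure D2:**
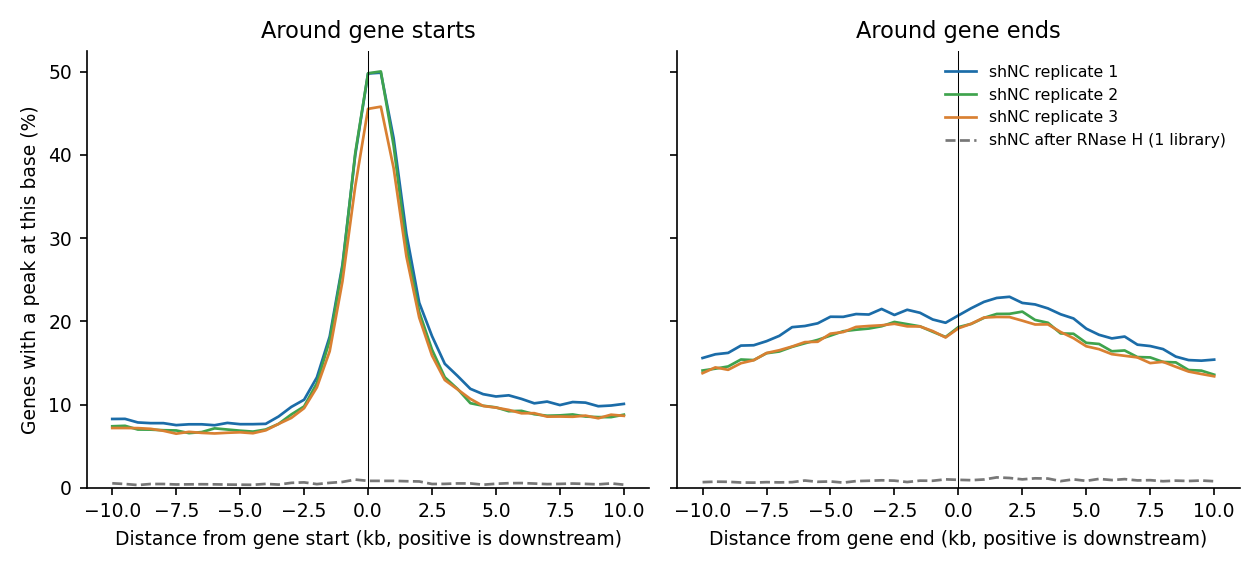
Percent of 7181 coding genes of at least 30 kb that have a peak at each distance (vertical axis) from the gene start (left) or end (right), in kb, positive downstream; solid lines are the 3 shNC libraries and the dashed line is the RNase H library. The start peak reaches 45.5% to 49.8% at distance 0, and at gene ends the lines lie between 19.2% and 20.7%.

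Promoter sequence went with that placement. RefSeq promoter windows (GRCh38.p14, 250 bases before to 50 after a start site) were matched to 15812 of 19821 coding genes. Of these, 7306 (46.2%) had at least 1 bp under peaks in all 3 libraries, 5988 (37.9%) lay wholly under peaks in all 3, and 6944 (43.9%) had no peak in any. Windows wholly covered held a median of 29 CpG dinucleotides and 67.3% G+C. Windows without a peak held a median of 9 CpGs and 55.7% G+C. With under 5 CpGs, 6.03% of 2619 windows were covered in all 3 libraries; the share was 43.4% with 10 to 19 and 72.6% with 40 or more. GC skew, the excess of G over C on the gene's strand, had a median of 0.00976 in wholly covered windows and 0.00637 in windows without a peak.

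The promoters of 4 genes show both the trend and its exceptions, and their 250 bases before the start site are printed 5′ to 3′ on the gene's strand with every CpG in capitals. RAI1 (chr17:17681208-17681457, plus strand, 38 CpGs) and KIF1A (chr2:240821404-240821653, minus strand, 7 CpGs) lay under peaks over all 250 bases in each of the 3 libraries. ALB (chr4:73404037-73404286, plus strand, 3 CpGs), the albumin gene of liver, and MACROD2 (chr20:13995266-13995515, plus strand, 29 CpGs) had no peak in any library. They are shown because a CpG-poor promoter can be covered and a CpG-rich one can be bare.

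RAI1: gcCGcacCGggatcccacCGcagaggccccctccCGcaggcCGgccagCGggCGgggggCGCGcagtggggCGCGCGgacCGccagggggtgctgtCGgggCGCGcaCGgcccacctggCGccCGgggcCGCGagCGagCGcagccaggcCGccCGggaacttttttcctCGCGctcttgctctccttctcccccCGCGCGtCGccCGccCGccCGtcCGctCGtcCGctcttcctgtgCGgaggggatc
KIF1A: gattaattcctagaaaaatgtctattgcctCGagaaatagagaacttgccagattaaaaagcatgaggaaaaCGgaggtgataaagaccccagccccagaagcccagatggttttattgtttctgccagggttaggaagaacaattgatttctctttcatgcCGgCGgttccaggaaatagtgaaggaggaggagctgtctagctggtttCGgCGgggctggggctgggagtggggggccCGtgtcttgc
ALB: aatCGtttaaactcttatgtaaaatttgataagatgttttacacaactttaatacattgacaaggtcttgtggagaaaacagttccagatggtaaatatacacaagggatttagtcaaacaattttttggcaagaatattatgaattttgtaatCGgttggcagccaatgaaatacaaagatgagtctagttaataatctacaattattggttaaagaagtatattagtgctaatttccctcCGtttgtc
MACROD2: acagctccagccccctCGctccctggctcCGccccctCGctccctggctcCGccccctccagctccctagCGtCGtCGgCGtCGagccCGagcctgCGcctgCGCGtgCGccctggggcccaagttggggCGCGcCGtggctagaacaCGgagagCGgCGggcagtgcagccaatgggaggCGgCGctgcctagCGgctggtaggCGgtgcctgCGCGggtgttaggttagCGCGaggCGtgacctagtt

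The KIF1A stretch was also under a peak over all 250 bases in the RNase H library, and the other 3 were not covered there. The recognition sites of the 5 digestion enzymes were searched on both strands of the 300-base windows (TGTACA for BsrGI, GAATTC for EcoRI, AAGCTT for HindIII, AATATT for SspI and TCTAGA for XbaI). At least 1 site occurred in 3.76% of wholly covered windows, 25.6% of windows without a peak, 28.1% of the remaining, partly covered or unshared windows, and 17.8% of all windows. These sites are rich in A and T, and the parts of base composition and of fragment ends in this difference were not tested.

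Each gene was measured by its covered length, the bases under peaks between 1 kb before and 1 kb after the gene. Of 19821 coding genes, 12787 (64.5%) had covered bases in all 3 libraries, 5942 (30.0%) had none in any, and 1092 (5.51%) had some in 1 or 2 libraries. The median gene was covered over 6.87%, 6.18% and 5.59% of that span in replicates 1 to 3. The median over genes of the 3-library mean was 6.30%, and it fell to 4.21% and 2.10% with −log10 q of at least 5 and 10 and to 3.55% without peaks that touch a peak of the RNase H library. At least 50% of the span lay under peaks in all 3 libraries in 3797 genes (19.2%), at least 90% in 1389 (7.01%) and all of it in 750 (3.78%). In the RNase H library 27.3% of coding genes had a peak, and the mean covered percent was 1.49%, against 23.8% ± 0.965 in the untreated libraries.

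The covered percent changed strongly with gene length. Among 3095 genes with spans under 5 kb, 52.0% had no peak in any library and 34.1% were at least 50% covered in all 3 libraries, so short genes were mostly either bare or well covered. From 5 to 20 kb the median covered percent was 23.1%, from 20 to 50 kb 11.4%, from 50 to 100 kb 4.93% and from 100 to 200 kb 2.61%. It was 0.903% from 200 to 500 kb and 0.172% above. The median covered length varied less, between 2.59 and 3.94 kb in the classes from 5 to 500 kb.

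Repeatability per gene was high for well covered genes and poor for barely covered ones. Across coding genes the Spearman correlation of covered length was 0.982 to 0.985 between pairs of libraries, a value that includes the many genes at 0 in both. The median coefficient of variation over the 3 libraries was 35.8% in 1857 genes with a mean of 0.5 to 2 kb, 11.1% in 7063 with 2 to 10 kb and 6.48% in 3816 with 10 to 50 kb.

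By covered length the leading gene was ALK, the receptor tyrosine kinase gene mutated in some neuroblastomas (chromosome 2, 29192774 to 29921586). It had 328, 277 and 296 kb under peaks in replicates 1 to 3. MSI2, encoding a Musashi RNA-binding protein, had 276, 242 and 242 kb. SLIT3, an axon guidance ligand, had 259, 234 and 248 kb. Replicate 1 was the highest for each of them. With −log10 q of at least 10 the mean was 194 kb in ALK and 243 kb in ZMIZ1, so the order of these genes depends on the threshold.

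ZMIZ1 followed with 247, 245 and 243 kb, and it was the gene of this set that was covered almost end to end (98.1% ± 0.868 of its span plus flanks, n = 3). GSE1, which encodes a coiled-coil protein found with histone deacetylase complexes, had 222, 206 and 193 kb. MAD1L1, of the spindle checkpoint, had 208, 194 and 178 kb. The presynaptic scaffold gene RIMBP2 had 182, 162 and 163 kb, the teneurin gene TENM4 179, 152 and 169 kb, and VAV2, a guanine nucleotide exchange factor, 148, 136 and 129 kb. In the RNase H library these genes had between 0.288 kb (VAV2) and 13.1 kb (ALK).

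**Figure D3:**
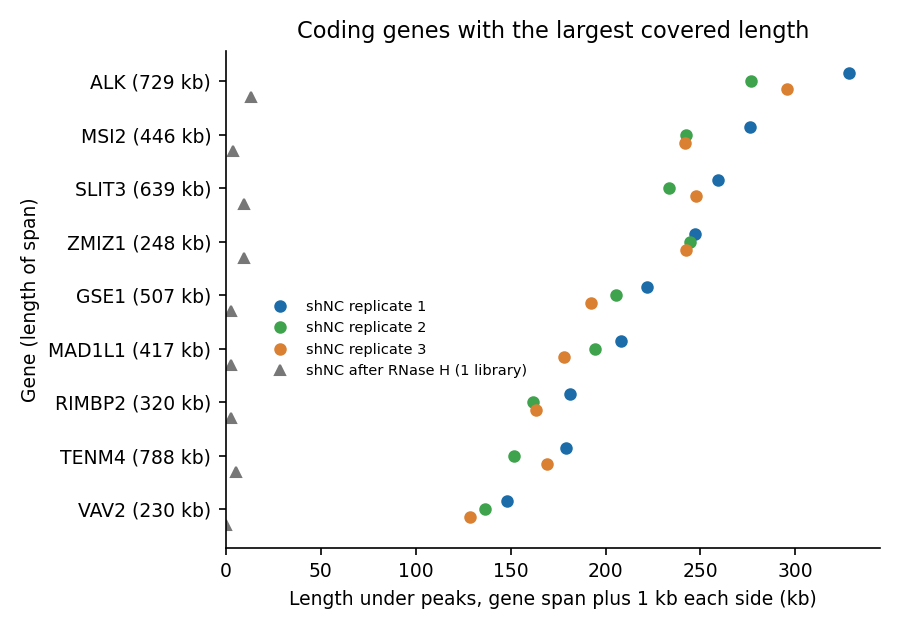
Length under peaks (kb, horizontal axis) in coding genes from the 10 with the largest mean covered length, with the span of each gene in brackets; circles are the 3 shNC libraries and triangles the RNase H library. ALK leads with 277 to 328 kb, and replicate 1 is the rightmost circle in every gene, while no triangle passes 13.1 kb.

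Among genes of at least 100 kb, those covered over the largest part of their span in the lowest library included ZMIZ1, KIF1A, RAI1, TMOD1, DNMT3A, SMARCA4, CACNA2D2, PTPRS and NFIC. KIF1A, the axonal transport kinesin (chromosome 2, 240713767 to 240821403), was covered over 84.4%, 84.3% and 84.1% of its span plus flanks. RAI1, a transcriptional regulator (chromosome 17, 17681458 to 17811453), had a mean of 83.2%. TMOD1, which caps the pointed end of actin filaments, had 79.7%, and DNMT3A, a de novo DNA methyltransferase, 78.6%.

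SMARCA4, the ATPase of SWI/SNF chromatin remodellers, reached 77.0% and CACNA2D2, an auxiliary calcium channel subunit, 76.6%. PTPRS, a receptor tyrosine phosphatase of axons, reached 74.6%, and NFIC, a nuclear factor I transcription factor, 74.5%. Part of this coverage lies in wide peaks that touch a peak of the RNase H library. Without such peaks ZMIZ1 kept 56.1 kb of 245 kb, TMOD1 17.8 kb of 81.8 kb, DNMT3A 21.4 kb of 91.8 kb and RAI1 41.7 kb of 110 kb. The same step took KIF1A from 92.4 to 46.9 kb, NFIC from 83.2 to 44.2 kb, PTPRS from 102 to 54.3 kb, SMARCA4 from 79.4 to 52.3 kb and SLIT3 from 247 to 157 kb.

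At the other end stood very long genes without a single peak in the 3 libraries. The longest was RBFOX1, a neuronal splicing regulator (chromosome 16, 5239721 to 7713340, 2474 kb). It was followed by the synaptic scaffold gene DLG2 (2173 kb), CSMD1 (2060 kb), MACROD2, an ADP-ribose hydrolase (2058 kb), the alpha-catenin gene CTNNA3 (1851 kb) and the presynaptic adhesion gene NRXN3 (1698 kb). IL1RAPL2 (1202 kb), the netrin receptor gene DCC (1196 kb), the receptor tyrosine kinase gene ERBB4 (1163 kb) and the sarcoglycan gene SGCZ (1154 kb) completed the 10 longest.

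Each of these 10 genes had covered bases in the RNase H library, from 0.643 kb in IL1RAPL2 to 6.66 kb in NRXN3. Of all 314 coding genes over 500 kb, 279 had a peak in the 1 RNase H library. In the untreated libraries 70 had none in any and 197 had one in all 3. The 197 ask for a peak in every library, so they are not a like count to the 279. With 70 of the 314 bare in all 3, however, no untreated library can have a peak in as many as 279. Over all coding genes, 5413 (27.3%) had a peak after RNase H. Of the 5942 genes bare in the untreated libraries, 540 (9.09%) had one.

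Differences between libraries were largest, among genes with a mean of at least 20 kb, in CLMP, ASH1L, PTPRN2, MAP1B and ZNF469. The adhesion gene CLMP had 29.1, 21.2 and 15.0 kb in replicates 1 to 3, and the histone methyltransferase gene ASH1L 47.9, 31.7 and 28.1 kb. PTPRN2, a dense-core vesicle protein, had 78.9, 56.2 and 48.3 kb, and the microtubule-associated MAP1B 32.6, 20.0 and 23.2 kb. Replicate 1 was highest in those 4. ZNF469 had 28.5, 29.3 and 17.5 kb, with replicate 3 low. Among the same genes the covered length was smaller by over 1.5 times at −log10 q of at least 5 in CLMP (10.2 kb) and PTPRN2 (38.9 kb). With at least 10 it was so in all 5, at 4.72 kb in CLMP, 13.01 kb in ASH1L, 24.9 kb in PTPRN2, 14.6 kb in MAP1B and 8.78 kb in ZNF469.

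Gene lists are described by their counts beside the 64.5% of all coding genes covered in all 3 libraries and their median of 6.30%. A covered gene is not thereby an expressed gene. Lists also differ in gene length, and the part of span in their counts and medians was not tested. Of 20 genes of adrenergic neuroblastoma identity, the sympathetic transcription factor program usually assigned to SH-SY5Y, 18 were covered in all 3 libraries, with a median covered percent of 84.9%. The homeobox gene PHOX2A, GATA2 and TBX2 were covered over 100% in every library, HAND2 over 95.2% in every library, and DBH, the enzyme that makes noradrenaline, over 100%, 98.6% and 98.6%. The zinc finger gene INSM1 and TH, the rate-limiting enzyme of catecholamine synthesis, had no peak in any library.

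In the RNase H library 15 of those 20 genes had a peak, beside 27.3% of all coding genes. Their median covered percent there was 10.2%, against 0 over all coding genes. Without the peaks that touch a peak there, 8 of 20 were covered in all 3 untreated libraries, beside 57.3% of all coding genes. Of genes of the alternative, mesenchymal identity 7 of 16 were covered in all 3 libraries, with a median of 0.211%, and without those peaks the count was also 7. The mesenchymal genes are also longer, with a median span of 65.2 kb against 12.0 kb in the adrenergic list, and the part of span was not tested. The AP-1 genes FOSL2 (64.5% on average) and FOSL1 (53.5%), the intermediate filament gene VIM (60.5%) and NOTCH3 (34.1%) held most of that coverage. PRRX1, TBX18, SNAI2, WWTR1, MEOX1, IFI16 and CD44 had none.

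Markers of other tissues had few peaks. None of 12 hepatocyte markers, ALB and APOA1 among them, had a peak in any of the 3 libraries. Of 12 skeletal muscle markers 5 were covered in all 3, with a highest mean of 17.7% (CKM, creatine kinase); ACTA1, skeletal muscle actin, reached 24.9% in replicate 2. That count was 2 with −log10 q of at least 5 and 1 with at least 10. Of 12 lymphocyte markers 2 were (CD79A, 8.95%, and CD8A, 3.92%). Of 12 epithelial markers 3 were: CLDN4, KRT10 and EPCAM. CLDN4, a tight junction gene, was covered over 100% in each library, and METTL27 shares its extended span. The muscle filament gene DES, the epithelial cadherin gene CDH1 and the liver gene AHSG had no peak in any of the 3 libraries. In the RNase H library CDH1 had 0.735 kb under peaks.

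Housekeeping genes were widely covered. Of 77 cytosolic ribosomal protein genes 76 were covered in all 3 libraries (median 89.4%), RPL35A being the exception with 1.56, 0 and 0.449 kb. All 20 cytosolic aminoacyl-tRNA synthetase genes were (median 32.7%), from FARSB at 1.59% to MARS1 at 88.9%. So were 34 of 37 respiratory complex I subunit genes (39.3%), with NDUFS8 at 100%. NDUFA8 had no peak in any of the 3 libraries but 2.25 kb under peaks in the RNase H library. Of 39 proteasome genes 31 were covered in all 3 libraries (22.6%), with PSMA7 at 100%. The proteasome genes without a peak were PSMB1, PSMD10, the immunoproteasome genes PSMB8 and PSMB9, the thymus gene PSMB11 and the testis gene PSMA8. Replication-dependent histone genes, which are very short, were covered in 55 of 69 cases (median 68.1%), and 10 had no peak. The median span was 5.01 kb in ribosomal protein genes and 0.494 kb in histone genes, against 24.5 kb in all coding genes. At that length the flanks are most of a histone gene's measured span. Without peaks that touch the RNase H library's, the counts were 51 of 77 ribosomal protein and 39 of 69 histone genes, beside 57.3% of all coding genes. They were 20 of 20 for synthetases, 27 of 37 for complex I and 26 of 39 for the proteasome.

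Genes of R-loop resolution were covered in 24 of 25 cases in all 3 libraries (median 17.7%). RNASEH2C, a subunit of RNase H2, was covered over 100% in each library and the helicase gene DDX41 over 97.1%, 97.0% and 95.5%. The Fanconi anaemia helicase gene FANCM was the member not covered in all 3, with 0.367, 0.411 and 0 kb. Of 9 loci often used to check DRIP assays, all were covered in all 3 libraries. Without peaks that touch a peak of the RNase H library 5 of the 9 were, beside 57.3% of all coding genes. RPL13A, TFPT and EGR1 were covered over 100% each time, and in the RNase H library over 67.2%, 82.4% and 93.8%. CALM3 was covered over 100%, 97.1% and 95.9%. BTBD19 had a mean of 88.8%, APOE 61.4%, ING3 13.4%, FMR1 4.89% and SNRPN 1.57%; in the last 3 the covered length was 2.01 to 3.93 kb.

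Synapse genes split by family member. The synaptic vesicle gene SYP was covered over 100% in each library, VAMP2 over 93.6%, 100% and 93.6% and the postsynaptic scaffold gene SHANK1 over 88.0%, 84.5% and 77.6%. Its relative SHANK3 had 0.241 kb in replicate 1 and none in the others. NRXN2 had 53.5, 51.2 and 47.9 kb, whereas NRXN3 had none. In all, 17 of 21 synapse genes were covered in all 3 libraries (median 16.4%).

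The HOX genes, which pattern the body axis, were covered by cluster. In HOXD on chromosome 2, 8 of 9 genes were covered in all 3 libraries, with a median covered percent of 77.5%. HOXD4 and HOXD9 were covered over 100% each time and HOXD3 over 94.5%, 93.1% and 93.1%. HOXD13, at the cluster's 5′ end, had 0.459, 0.462 and 0 kb. In HOXC on chromosome 12, 4 of 9 genes were covered in all 3, the most covered being HOXC4 at 13.9%, 19.3% and 12.5%. None of 11 HOXA and 10 HOXB genes had a peak in any of the 3 libraries.

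Clustered sensory and skin gene families were almost bare. Of 389 olfactory receptor genes 2 were covered in all 3 libraries (OR10AD1 and OR9K2) and 387 had no peak. Of 94 keratin-associated protein genes 3 were (KRTAP10-1, KRTAP5-1 and KRTAP5-2) and 91 had none. None of 39 beta-defensin genes had a peak, nor did 22 of 24 bitter taste receptor genes; TAS2R3 had the highest mean of these, with 0.069 kb in replicate 1 only. Of 246 chromosome 19 zinc finger genes 217 were covered in all 3 libraries, with a median of 16.8%, below the 40.6% of all coding genes of that chromosome, 76.6% of which were covered in all 3. The count was 138 with −log10 q of at least 10.

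**Figure D4:**
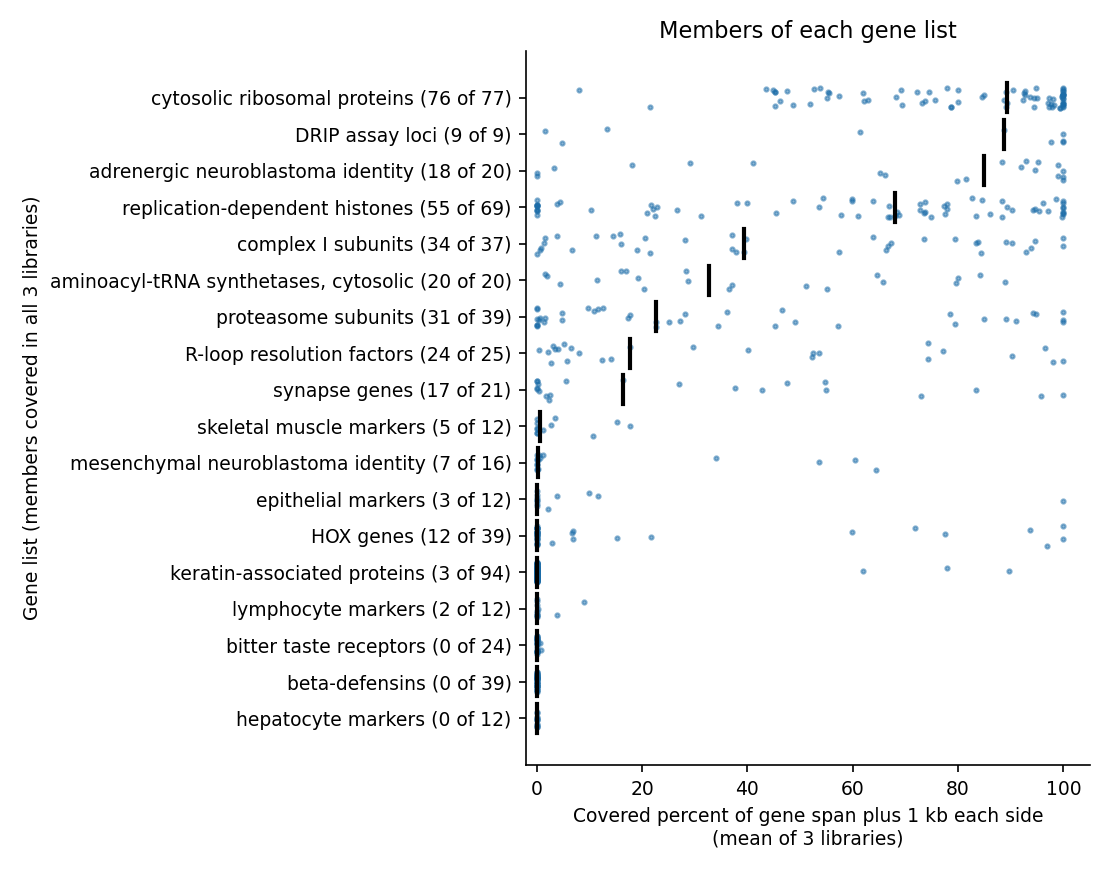
Percent of the gene span plus 1 kb each side under peaks, as the mean of 3 shNC libraries (horizontal axis), for each member (dot) of the gene lists with its median (bar); brackets give the members covered in all 3 libraries. Ribosomal protein genes have a median of 89.4% and hepatocyte markers, beta-defensins and bitter taste receptors have medians of 0.

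Noncoding genes were covered less often than coding genes, and in each class a larger share was covered near coding genes than away from them. A gene counts as covered from 1 bp, and noncoding spans are shorter. The median span was 24482 bp in coding genes, 9129 bp in long noncoding RNA genes and 643 bp in pseudogenes. It was 104 bp in small nucleolar RNA genes, 80 bp in microRNA genes and 73 bp in transfer RNA genes. The part of span was not tested. Of 17904 long noncoding RNA genes 24.0% were covered in all 3 libraries: 44.0% of those near a coding gene and 6.75% of those away from one. MicroRNA genes reached 30.8% of 1911, with 40.6% near and 9.32% away, and small nucleolar RNA genes 23.9% of 1190. Transfer RNA genes reached 14.7% of 429, with 49.0% near and 4.80% away, and pseudogenes 6.13% of 15048. Transcribed pseudogenes stood higher, at 28.9% of 1221, and 178 of their 353 covered genes lay away from coding genes (20.8% covered there, 47.9% near).

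Gene-rich chromosomes were covered several times more than gene-poor ones. Chromosomes were ranked by coding genes per Mb, and the 6 densest (19, 17, 22, 11, 16 and 20) were set against the 6 sparsest (2, 5, 8, 4, 13 and 18). The dense class was 10.9%, 10.1% and 9.73% covered in replicates 1 to 3, and the sparse class 2.61%, 2.36% and 2.28%. The difference was 8.25, 7.72 and 7.46 percentage points (7.81 ± 0.404, n = 3), far larger than the spread between libraries. The 2-sided exact sign-flip permutation test over 3 libraries gave p = 0.25, the smallest it can give. After RNase H the classes were 0.605% and 0.262% covered.

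The difference was also present both within and outside coding gene spans. Within coding gene spans the dense class was 18.2% ± 1.00 covered and the sparse class 5.25% ± 0.373, and outside coding genes 2.52% ± 0.177 and 0.547% ± 0.0506. The dense class had 43.8 ± 1.12 peaks per Mb and the sparse class 16.2 ± 0.571. Median widths were 813 ± 38.4 and 673 ± 29.8 bp and median folds 4.60 ± 0.0812 and 4.29 ± 0.117. All covered length, inside and outside genes alike, was also divided by the number of coding genes. This gave 8.48 ± 0.480 kb in the dense class and 5.35 ± 0.390 kb in the sparse class.

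The gap held within classes of gene length. Genes of dense chromosomes are shorter, with a median span of 16.3 kb against 40.0 kb. For spans under 20 kb the median covered percent was 38.6% in the dense class and 4.79% in the sparse class. For spans from 20 to 100 kb it was 17.1% and 4.98%, and above 100 kb 4.04% and 1.34%. The shares of genes covered in all 3 libraries differed less, 69.7% and 61.5%.

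Chromosome 19 led with 24.2%, 22.9% and 22.03% covered, followed by 17 (12.7% on average) and 22 (12.6%). Chromosomes 13 (1.45%), 18 (1.49%) and X (1.501%) were lowest. X stood below autosomes of like density: it has 5.44 coding genes per Mb, and chromosome 10, with 5.48, was 3.54% covered. Chromosome 7 stood higher, at 5.06% with 5.88 genes per Mb. Over the 23 chromosomes the Spearman correlation of gene density and covered percent was 0.916, a description of chromosomes that share the same libraries.

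**Figure D5:**
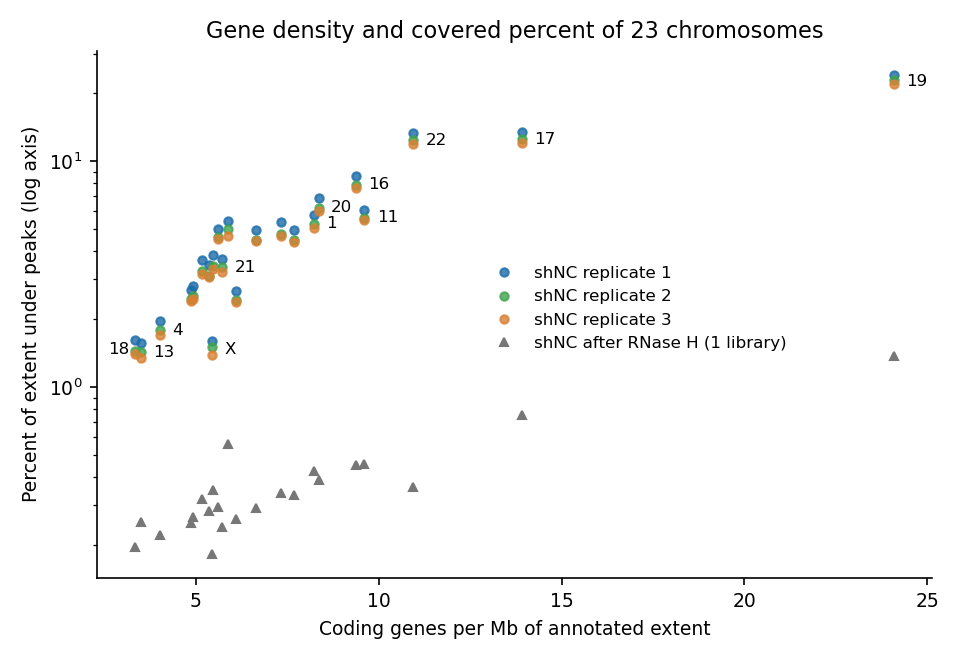
Percent of each chromosome's annotated extent under peaks (vertical log axis) against coding genes per Mb (horizontal axis) for chromosomes 1 to 22 and X; circles are the 3 shNC libraries, triangles the RNase H library, and some chromosomes are named. Chromosome 19 stands at 22.03% to 24.2%, and chromosomes 13, 18 and X average 1.45%, 1.49% and 1.501%.

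On a finer scale the covered length was packed into few places. Of 2958 windows of 1 Mb, 249 (8.42%) held 50% of it, 184 were over 20% covered and 391 had no peak in any library. The median window was 1.23% covered. The most covered window, chromosome 17 from 81000001 to 82000000, was under peaks over 64.2%, 62.7% and 59.6% of its length and overlaps 37 coding genes, including the actin gene ACTG1 and BAHCC1. Next was chromosome 19 from 1000001 to 2000000 with 61.9%, 60.3% and 58.1% and 39 coding genes, among them STK11, RPS15 and TCF3.

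Some windows with many coding genes were bare. Of the 391 windows without a peak, 196 hold no coding gene. The bare window with most coding genes was chromosome 21 from 30000001 to 31000000, where 34 genes lie, keratin-associated protein genes with CLDN8 and CLDN17. Next were chromosome 11 from 56000001 to 57000000, with 27 olfactory receptor genes, and chromosome 1 from 158000001 to 159000000, with 25 genes of the CD1, olfactory receptor and interferon-inducible families. The peak-free stretches over 2 Mb numbered 111. Those on chromosomes 1 (18.1 Mb), 9 (17.4 Mb) and 16 (10.2 Mb) were the longest and hold 0 coding genes. The longest that holds coding genes was on chromosome 18 from 14132779 to 21013248 (6.88 Mb), with the coding genes POTEC and ANKRD30B. Whether reads can be placed in these bare windows and stretches was not tested, so a lack of peaks there need not be a lack of hybrids.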

How the data were processed

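Hybrids were measured by DRIP-seq in 3 untreated shNC libraries and 1 RNase H library. The authors deposited 1 peak list per library. Per the submitters' processing notes, Bowtie2 2.4.4, SAMtools, MACS2 2.2.6 and hg38 were used; settings and the control for peak calling are not given in the sources used here. The deposited lists hold a fold (a linear ratio over local background), −log10 p and −log10 q, a score (the whole part of 10 times −log10 q) and the offset of the summit, per the values in the deposited files. No read counts were used; relative depth was solved from fold and p at 5000 summits per library, of which 99.6% ± 0.201 gave a whole pileup within 0.001 in −log10 p.

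Lengths under peaks were computed with Python 3.11.15, numpy 2.4.6 and pandas 2.3.3 by interval union on chromosomes 1 to 22 and X, with GRCh38.p14 RefSeq gene spans plus 1 kb each side; 679 annotation entries on unplaced scaffolds, 153 of them coding, were left out. Interval sums were tested on simulated data: 0 of 1500 differed from a base-by-base count. Overlapping genes share peaks, without exon or repeat information. A gene near a coding gene shares its extended span.

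Named genes were those with the 10 largest covered lengths, the 10 largest covered percents (spans of at least 100 kb, lowest library), the 10 longest without a peak, the 5 with the largest range between libraries (mean of at least 20 kb), the extremes of each list, the genes at the 5 longest and 5 strongest shared regions, and the DRIP loci. A few genes chosen by these rules are not reported here. Any other gene was picked with its values in view. The members and lists were chosen with earlier results of these data known. Alternatives were stricter −log10 q, equal list lengths, each library left out, other flanks, overlaps, joins and chromosome classes.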

Additional observations from a re-analysis of the deposited data

Results flagged for a closer look

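Outside chromosomes 1 to 22 and X, which no comparison used, the 3 untreated libraries had 103, 89 and 83 peaks (91.7 ± 10.3, SD, n = 3), more than the 76 of the RNase H library. Of these, 4, 4 and 5 lay on the mitochondrial genome, against 5 after RNase H. They are listed because the numbers exceed that of the negative control in each library; the mitochondrial numbers do not. As a share of all peaks the direction is opposite: 0.140%, 0.128% and 0.117%, against 0.488% after RNase H. The RNase H library was also shallower, and its part in the difference was not tested. Groups of 3 libraries are too small for a search for single libraries that stand apart.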

How the results depend on the processing

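No paired analysis was possible because the 3 libraries form 1 group and the single test compares chromosome classes within each library. With −log10 q of at least 5, the mean library held 39438 peaks over 114 Mb, 22341 regions were shared, 58.8% of coding genes were covered in all 3 libraries, the median covered percent was 4.21%, the median width 1592 bp and the median fold 6.08. With at least 10 these were 19914 peaks, 92.5 Mb, 13480 regions, 50.2%, 2.10%, 3025 bp and 9.50. Joining peaks within 1 kb gave a median width of 1464 bp. Without flanks 63.1% of genes were covered and the median was 5.33%; with 5 kb flanks 67.1% and 7.12%. Asking for 500 bp in each library gave 61.9% of genes. Leaving out a library gave 65.0% to 66.1%. Leaving out peaks that touch a peak of the RNase H library, an alternative chosen after seeing the data, gave 101 Mb, 57.3% of genes and a median of 3.55%.

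The difference between chromosome classes kept its sign under each of the 9 alternatives tried, between 5.31 and 9.73 percentage points. Its p says nothing of stability, since 3 libraries cannot give less than 0.25 and 2 cannot give less than 0.5. With lists cut to 69453 peaks each, the values of all 8 summaries stayed within the spread between libraries or within 1.5 times. Of 23 named covered lengths, 17 moved beyond the spread between libraries at −log10 q of at least 5 and 22 at 10. The count was 0 when a library was left out, but this rule could give no other result. Dropping a library always shifts the mean by less than the SD over the 3 libraries. Of 21 list counts, 0 moved by over 1.5 times when a library was left out, 3 did at −log10 q of at least 5, 7 at 10, and 4 without peaks that touch the RNase H library's. Narrow, weak peaks recurred least, and the part of depth in that was not tested.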
